A study of Mus musculus with 2 samples.

Results

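The 7 mouse genes described here encode the platelet-derived growth factor (PDGF) ligands, *Pdgfa*, *Pdgfb*, *Pdgfc* and *Pdgfd*, the PDGF receptor kinases, *Pdgfra* and *Pdgfrb*, and the receptor-like protein gene *Pdgfrl*. They were taken by symbol from 22096 gene symbols in the deposited tables, and all 7 were found. RNA was sequenced from cells of mouse embryonic forelimbs at stage E13.5, of mixed strain background, sorted on a green fluorescent reporter. The ScxGFP-positive group and the ScxGFP-negative group gave 1 library each, and each library came from 6 pooled forelimbs (3 pairs). ScxGFP is a reporter of *Scx*, which encodes scleraxis, the transcription factor that marks progenitors of tendon and ligament, so the negative group can hold blood, vessel, skin and nerve cells as well as other mesenchyme. The comparison asks how the sorted populations differ in gene expression. With no replicates there is no test, and each difference is a description of 2 libraries.

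PDGF ligands are secreted as dimers that bring receptor chains together, after which the receptors phosphorylate each other and recruit signalling proteins. PDGF-AA and PDGF-CC act mainly through the alpha receptor encoded by *Pdgfra*, PDGF-DD through the beta receptor encoded by *Pdgfrb*, and PDGF-BB through both. In embryos *Pdgfra* is widely transcribed in mesenchyme and connective tissue, *Pdgfrb* in pericytes and other mesenchymal cells, *Pdgfa* in epithelia and muscle, and *Pdgfb* in endothelium and megakaryocytes.

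Sequence shortly before a start site is shown for *Pdgfra*, the member with the largest difference between the libraries, and for *Pdgfa*, the most abundant of the members whose ratio lay on the other side. Both come from RefSeq windows on GRCm38.p6, a later build than the mm9 of the expression tables, and run 5′ to 3′ in the direction of transcription. Bases after the start site of the window, or after a listed transcript start where that came first, were left off. Capitals mark CANNTG, the E-box letters that basic helix-loop-helix factors such as scleraxis can bind, and GGGCGG, the GC box letters, each searched on both strands.
Pdgfra, chr5:75152001-75152250, plus strand: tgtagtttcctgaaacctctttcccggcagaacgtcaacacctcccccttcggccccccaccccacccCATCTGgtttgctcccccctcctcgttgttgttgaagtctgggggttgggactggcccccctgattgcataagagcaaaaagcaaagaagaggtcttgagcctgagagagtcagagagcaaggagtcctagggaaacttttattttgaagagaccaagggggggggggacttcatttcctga
Pdgfa, chr5:138995038-138995194, minus strand: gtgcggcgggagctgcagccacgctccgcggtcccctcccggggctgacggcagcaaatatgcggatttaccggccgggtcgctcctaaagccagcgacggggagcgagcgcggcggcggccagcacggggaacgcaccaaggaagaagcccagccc
The *Pdgfra* stretch of 250 bases held 1 E-box, CATCTG, and 0 GC boxes. CANNTG occurs in 66.2% of all 32851 RefSeq windows of that length, and CAGATG, which is CATCTG on the other strand, in 14.4%. The 50 bases of the *Pdgfra* window left off after the stretch held a further E-box, CAAATG. Of full windows of 300 bases, 72.3% hold CANNTG. The *Pdgfa* stretch of 157 bases held neither motif, and 50.8% of windows cut to that length hold CANNTG and 17.6% GGGCGG. The full *Pdgfa* window of 300 bases, chr5:138994895-138995194, held 2 GGGCGG and 0 CANNTG. Both GC boxes thus lie at least partly in the bases left off. Of full windows, 35.7% hold GGGCGG. A second RefSeq window of *Pdgfa*, chr5:138994282-138994531, held 1 GGGCGG and 0 CANNTG in its 250 bases. The GC content of the stretch shown was 72.0%, against 54.4% in the *Pdgfra* stretch. The windows of *Pdgfc* and *Pdgfd* held 0 CANNTG and 0 GGGCGG in the 250 bases before the start site of each window. In the GRCm38 annotation the listed *Pdgfd* transcript starts 126 bases after that of its window, so the bases nearest to it were not covered. All matches given here are letters in a window and say nothing of binding.

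Transcripts of both PDGF receptors and of *Pdgfrl* were more abundant in ScxGFP-positive cells, while the ligand transcripts went in both directions. The level unit is the deposited FPKM, which is normalised to transcript length and sequencing depth and was added up over the listed transcripts of each gene. Differences are log2 ratios of ScxGFP-positive over ScxGFP-negative, with 1 added to each FPKM, so that changes of genes at low levels come out too small. A difference of at least 2-fold on that scale is described as higher or lower, a size rule without a test. *Pdgfra* and *Pdgfrl* passed it as higher and 0 members passed it as lower. Of the 12096 genes that reached 1 FPKM in one library or both, called measured here, 4.03% passed as higher and 9.98% as lower. *Pdgfd* lay under 1 FPKM in both libraries, so 6 of the 7 members were measured.

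Aligned sequence on the listed transcripts came to 0.687 gigabases for ScxGFP-positive and 0.875 gigabases for ScxGFP-negative cells. The median log2 ratio of measured genes was −0.27, so each member's difference is also given relative to that median. *Scx* itself stood at 134 FPKM in ScxGFP-positive and 1.69 in ScxGFP-negative cells, the check of the sort. The limb mesenchyme genes *Prrx1* and *Tbx5*, the forelimb factor, stood at 37.8 and 27.4 FPKM in positive cells and at 27.8 and 15.9 FPKM in negative cells, so mesenchyme of the forelimb was present in both.

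**Figure D1:**
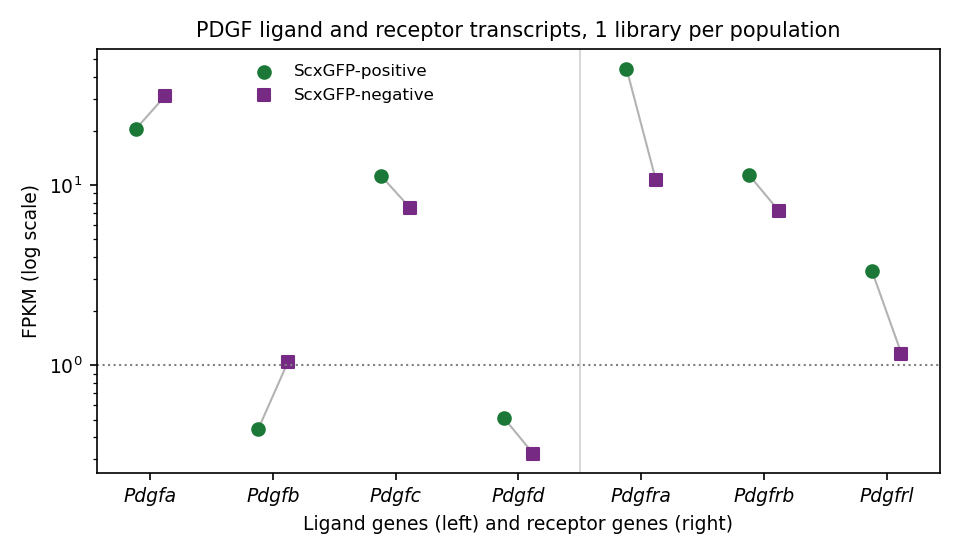
FPKM of each PDGF gene on a log axis in the ScxGFP-positive library (green circles) and the ScxGFP-negative library (purple squares), joined by a line for each gene; each point is 1 library and the dotted line is 1 FPKM. *Pdgfra* shows the steepest line, with 44.5 FPKM in positive and 10.6 FPKM in negative cells, and *Pdgfa* and *Pdgfb* slope the other way.

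Among the receptors, *Pdgfra* had the widest difference of all members. It stood at 44.5 FPKM in the ScxGFP-positive library and at 10.6 FPKM in the ScxGFP-negative library, on 666 and 166 kilobases of aligned sequence. The log2 ratio was 1.97, a 3.91-fold difference on the FPKM + 1 scale, and 2.23 above the median of measured genes. Of measured genes, 1.39% had a ratio at least as high. Its level was above that of 96.4% of measured genes in the positive library and of 77.2% in the negative library. It was the most abundant of the 7 members in positive cells, whereas *Pdgfa* was the most abundant in negative cells.

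*Pdgfra* was listed as 2 transcripts with different starts on mm9 chromosome 5. NM_011058 (75548316 to 75594229) carried most of the signal, at 36.5 FPKM in positive and 8.58 FPKM in negative cells. NM_001083316, which starts further downstream (75552191 to 75594229), stood at 7.98 and 2.06 FPKM in positive and negative cells. Both were higher in the positive library, with log2 ratios of 1.97 and 1.56. As deposited, the share of the downstream form was 17.9% in ScxGFP-positive and 19.3% in ScxGFP-negative cells, nearly the same proportion. The forms, of 6553 and 6570 bases, share their end. The division of reads between them thus rests on the sequence where they differ and is uncertain. In the later GRCm38 annotation, the start of NM_011058 lies 55 bases after that of the window shown above. The 50 bases left off from that window, with the E-box CAAATG, thus lie before the start of NM_011058.

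*Pdgfrb*, the beta receptor gene (mm9 chromosome 18, 61204804 to 61244721), differed less. It stood at 11.4 FPKM in ScxGFP-positive and 7.22 FPKM in ScxGFP-negative cells, with a log2 ratio of 0.59, below 2-fold and 0.85 above the median of measured genes. A ratio at least as high was found in 7.58% of measured genes. It too was listed as a pair of transcripts, which differ in length by 3 bases, so the division of reads between them rests on very little sequence and is uncertain. As deposited, NM_008809 stood at 7.39 FPKM in positive and 5.78 FPKM in negative cells, and NM_001146268 at 3.96 and 1.44 FPKM in positive and negative cells. The second of these made up 34.9% of the gene's level in positive and 19.9% in negative cells.

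*Pdgfrl* encodes a receptor-like protein that has immunoglobulin-like domains and no kinase domain (NM_026840, mm9 chromosome 8, 42011587 to 42076124). It stood at 3.34 FPKM in ScxGFP-positive and 1.16 FPKM in ScxGFP-negative cells. Its log2 ratio of 1.01 lay just past the 2-fold limit and 1.27 above the median of measured genes. A ratio at least as high was found in 4.03% of measured genes. The positive value rests on 11.7 kilobases of aligned sequence and the negative one on 4.25 kilobases. With a pseudocount of 5 its log2 ratio was 0.44, below the limit, and under the 3 TPM scalings it was 1.72 to 1.93.

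The make-up of the receptor pool does not depend on the scaling between libraries, since FPKM is per length and the shares are taken within a library. *Pdgfra* made up 79.7% of the summed FPKM of the receptor kinase genes in ScxGFP-positive cells and 59.6% in ScxGFP-negative cells. The ratio of *Pdgfra* to *Pdgfrb* was thus 3.92 in positive and 1.47 in negative cells. The summed level of the pair was 55.8 FPKM in positive and 17.9 FPKM in negative cells. The alpha receptor was the more abundant transcript in both populations, and by a wider margin in the positive one.

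*Pdgfa*, which encodes the A chain, was the most abundant ligand transcript in both populations (NM_008808, mm9 chromosome 5, 139452929 to 139470907). It stood at 20.4 FPKM in ScxGFP-positive and 31.2 FPKM in ScxGFP-negative cells. The positive value was 65.5% of the negative one, a log2 ratio of −0.59, below 2-fold. It lay 0.32 below the median of measured genes, and 23.6% of them had a ratio as low or lower, so it was not far from the bulk of genes. The summed FPKM of 6 epidermal markers, a cell type known for *Pdgfa*, was 11.3 in positive and 304 in negative cells, with the keratin gene *Krt5* the largest part, at 4.67 and 151 FPKM. Skeletal muscle, also known for *Pdgfa*, had markers on the other side: 4 of 4 measured were higher, with a summed level of 142 FPKM in positive and 17.5 FPKM in negative cells. The part of skin and muscle cells in the *Pdgfa* difference was not tested, and in such pooled libraries fewer cells of a type and less RNA per cell cannot be told apart. The summed positive level of the epidermal markers was 3.73% of the negative level, against 65.5% for *Pdgfa*.

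*Pdgfc*, whose product is secreted in a latent form with a CUB domain, had its higher value in the other library (NM_019971, mm9 chromosome 3, 80840338 to 81017953). It stood at 11.3 FPKM in ScxGFP-positive and 7.44 FPKM in ScxGFP-negative cells. Its log2 ratio of 0.54 was below 2-fold, lay 0.81 above the median of measured genes, and was matched or exceeded by 8.18% of them. *Pdgfc* and *Pdgfrb* thus stood at nearly the same levels in both libraries.

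*Pdgfb* and *Pdgfd* were scarce in both populations. *Pdgfb*, the B chain gene (NM_011057, mm9 chromosome 15, 79826306 to 79845238), stood at 0.443 FPKM in ScxGFP-positive and 1.04 FPKM in ScxGFP-negative cells, on 2.98 and 7.29 kilobases of aligned sequence. The positive value was 42.7% of the negative value, yet the log2 ratio was −0.50, because a pseudocount of 1 weighs heavily at this level; with a pseudocount of 0.1 it was −1.07, past 2-fold. *Pdgfd*, the gene of the beta receptor ligand PDGF-D (NM_027924, mm9 chromosome 9, 6168612 to 6377519), stood at 0.511 and 0.324 FPKM in positive and negative cells, on 2.09 and 1.39 kilobases. Its log2 ratio was 0.19, which lay 0.46 above the median of measured genes. The libraries mark no strand, and the gene *Ddi1* lies within the *Pdgfd* locus, so reads of one could be given to the other where exons overlap; *Ddi1* was listed at 0.171 and 0.0725 FPKM in positive and negative cells.

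The *Pdgfb* ratio lay on the same side as those of markers of the cells best known for it. Ratios of 8932 of the 12096 measured genes also lay below 0. That of *Pdgfb* was 0.23 below the median of measured genes, and 29.2% of them had a ratio as low or lower. The 7 endothelial markers summed to 3.01 FPKM in ScxGFP-positive and 50.8 FPKM in ScxGFP-negative cells, and 6 of 7 were lower. Among them *Cdh5*, the endothelial cadherin, stood at 0.447 and 15.3 FPKM in positive and negative cells, *Pecam1* at 0.250 and 7.15 FPKM, and the angiopoietin receptor gene *Tek* at 1.02 and 2.10 FPKM. The 5 megakaryocyte and platelet markers summed to 2.12 FPKM in positive and 23.8 FPKM in negative cells, of which *Pf4* gave 1.33 and 21.6 FPKM. The other 4, *Ppbp*, *Itga2b*, *Gp9* and *Gp1bb*, lay under 1 FPKM in both libraries, with *Gp9* at 0 in positive cells. The part of vessel cells and platelet precursors in the *Pdgfb* difference was not tested.

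As shares of the ligand pool, *Pdgfa* made up 62.5% in ScxGFP-positive and 78.0% in ScxGFP-negative cells, and *Pdgfc* 34.5% and 18.6%. *Pdgfb* held 1.36% of the pool in positive and 2.59% in negative cells, and *Pdgfd* 1.56% and 0.809%. The A chain and C chain genes together thus supplied nearly all ligand transcripts in both libraries. The ratio of *Pdgfa* to *Pdgfc* was 1.81 in positive and 4.19 in negative cells. The summed ligand level was similar, at 32.7 FPKM in positive and 40.0 FPKM in negative cells, 81.7% of the negative value. The ratio of *Pdgfra* to *Pdgfa*, a receptor to its best known ligand, was 2.18 in positive and 0.341 in negative cells.

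**Figure D2:**
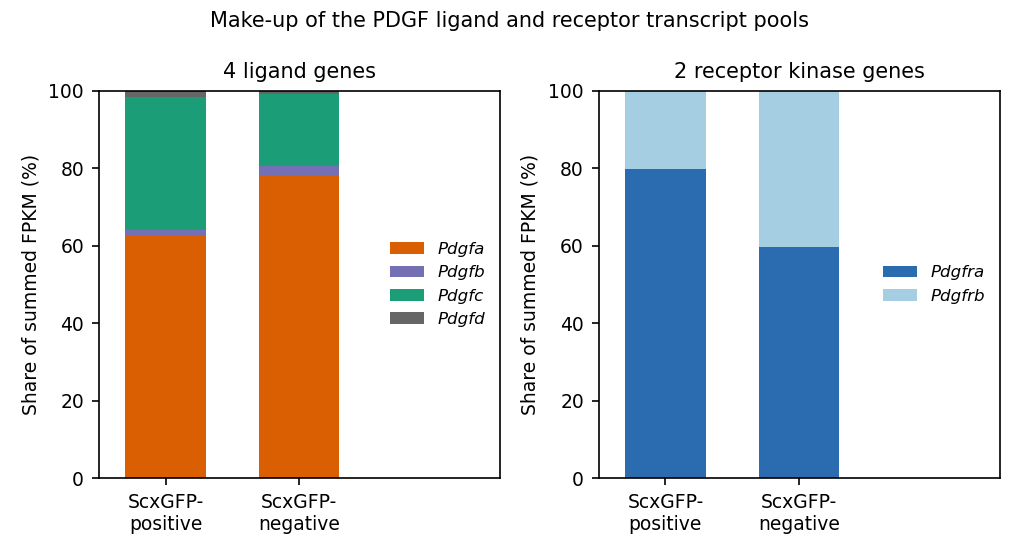
Share of summed FPKM (percent) held by each of the 4 ligand genes (left) and by each of the 2 receptor kinase genes (right), with the ScxGFP-positive library left of the ScxGFP-negative library in each panel; each bar is 1 library. *Pdgfc* takes 34.5% of the ligand pool in positive and 18.6% in negative cells, and *Pdgfra* 79.7% and 59.6% of the receptor pool.

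The direction of each member was the same under every alternative tried, but which members passed 2-fold was not. *Pdgfra* stayed past 2-fold throughout, with log2 ratios of 1.66 to 2.61. With FPKM rescaled to equal sums (TPM), *Pdgfc* and *Pdgfrb* also passed, at 1.03 and 1.07. *Pdgfa* ranged from −0.61 to −0.04, so under some scalings it was nearly equal in the libraries.

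**Figure D3:**
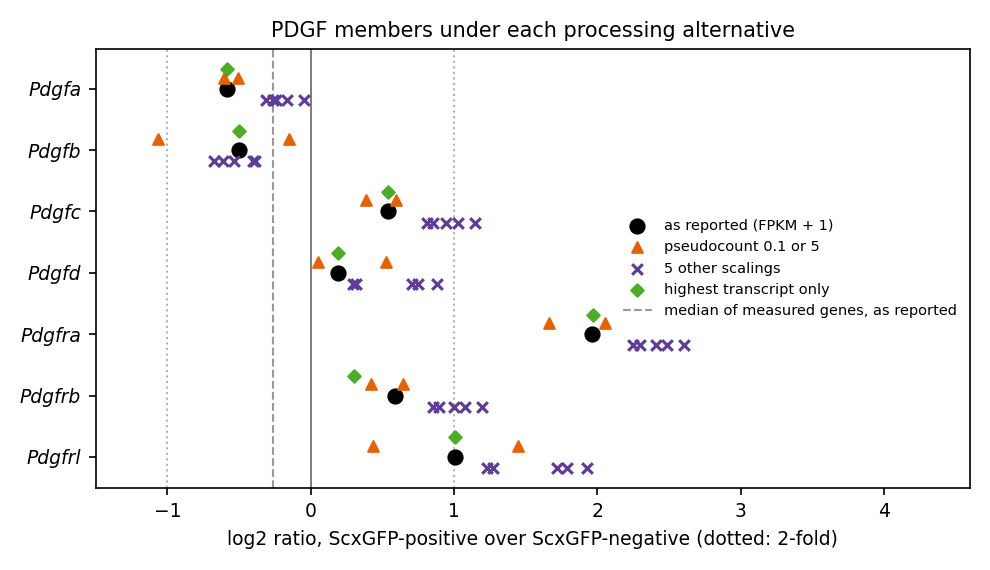
The log2 ratio of ScxGFP-positive over ScxGFP-negative for each member as reported (black) and with another pseudocount, another scaling of the libraries or the highest transcript only; dotted lines mark 2-fold and the dashed line the median of measured genes, −0.27. *Pdgfra* lies right of the 2-fold line under every alternative and *Pdgfa* left of 0 under every alternative.

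Receptor kinase genes that lie next to *Pdgfra* and *Pdgfrb* went the other way. *Kit*, the stem cell factor receptor gene of mast cells and melanoblasts, and *Kdr*, the main VEGF receptor gene of endothelium, follow *Pdgfra* on mm9 chromosome 5, at gaps of 377 and 735 kilobases. *Pdgfra* was higher in ScxGFP-positive cells, whereas *Kit* stood at 2.38 FPKM in positive and 19.1 FPKM in negative cells and *Kdr* at 0.579 and 5.68 FPKM. *Csf1r*, the macrophage growth factor receptor gene, lies 20.5 kilobases after *Pdgfrb* on chromosome 18 and stood at 0.919 FPKM in positive and 24.0 FPKM in negative cells. The log2 ratio of *Csf1r* was −3.71, against 0.59 for *Pdgfrb*.

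The list of other class III receptor kinases and VEGF receptors was lower throughout. All 5 measured genes of 6 were at least 2-fold lower in ScxGFP-positive cells, against 9.98% of all measured genes. Their median log2 ratio was −2.22, against −0.27 over all measured genes. Besides *Csf1r*, *Kit* and *Kdr* they were *Flt4*, the lymphatic receptor gene, at 0.131 and 4.28 FPKM in positive and negative cells, and *Flt1*, named after its value was seen, at 0.189 and 1.92 FPKM. *Flt3*, a receptor gene of blood progenitors, was listed at 0 in positive and at 0.694 FPKM in negative cells and was not measured. Markers of cells that use these receptors moved the same way. The summed FPKM of 6 macrophage and leukocyte markers was 5.54 in positive and 281 in negative cells, with none at 0; *Tyrobp* was the largest part, at 1.73 and 84.6 FPKM. The 4 mast cell markers summed to 2.80 FPKM in positive and 357 FPKM in negative cells, with *Ms4a2* at 0 in positive cells. The part of those cells in the receptor differences was not tested.

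The 5 VEGF-family ligand genes, relatives of the PDGF ligands, were all measured and none passed 2-fold. *Vegfc*, a lymphatic growth factor gene, was the nearest to it, at 2.23 FPKM in ScxGFP-positive and 0.741 FPKM in ScxGFP-negative cells, with a log2 ratio of 0.89; it was named after its value was seen. Their median log2 ratio was 0.32, against −0.27 over all measured genes.

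Genes for ligand processing went both ways. PDGF-A and PDGF-B are cut by proprotein convertases of the furin family. The convertase gene *Pcsk6* was lower, at 3.60 FPKM in ScxGFP-positive and 14.5 FPKM in ScxGFP-negative cells, and *Pcsk5* was higher, at 3.83 and 0.842 FPKM. *Furin* itself stood at 5.54 and 7.78 FPKM in positive and negative cells, within 2-fold. Latent PDGF-C is activated by tissue plasminogen activator, the product of *Plat*, which was higher, at 3.13 FPKM in positive and 0.932 FPKM in negative cells. Latent PDGF-D is activated by urokinase, the product of *Plau*, at 0.269 and 2.60 FPKM in positive and negative cells, and by matriptase, the product of *St14*, at 0.0437 and 1.58 FPKM. The positive value of *St14* rests on about 401 aligned bases. *Plau* and *St14* were thus both lower and *Plat* higher, with *Plat* and *Furin* named after their values were seen. Of the 7 processing genes, all measured, 2 were higher and 3 lower, against 4.03% and 9.98% of all measured genes. Their median log2 ratio was −0.42, against −0.27 over all measured genes.

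Proteins that bind PDGF or assist its receptors were likewise mixed. *Thbs1*, the thrombospondin 1 gene, was higher, at 15.7 FPKM in ScxGFP-positive and 4.31 FPKM in ScxGFP-negative cells. *Cd44*, a hyaluronan receptor gene, was lower, at 2.85 and 9.28 FPKM in positive and negative cells. *Eng*, the gene of the endothelial TGF-beta co-receptor endoglin, was also lower, at 0.977 and 5.38 FPKM. The other 6 of the 9 were within 2-fold, and the median log2 ratio was 0.21. Over all measured genes, 4.03% were higher and 9.98% lower.

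Counts of signalling genes past 2-fold downstream of the receptors are given beside the shares of all measured genes, 4.03% higher and 9.98% lower; at these list sizes they do not set the lists apart from other genes. Of 21 adaptors and enzymes recruited to the receptors, 0 were higher and 1 was lower, *Grb7*, an adaptor gene, at 0.119 FPKM in ScxGFP-positive and 2.40 FPKM in ScxGFP-negative cells. The median log2 ratio of these 21 was −0.19. Of 19 genes of the Ras-ERK, Akt and STAT steps, 0 were higher and 1 was lower, *Nras*, at 9.27 and 20.4 FPKM in positive and negative cells. Their median was −0.39. The listed gene *Hras* was not found under that symbol and so was not analysed. Among 9 phosphatases and ubiquitin ligases that lower receptor signalling, 2 were lower. *Ptpn6*, the phosphatase gene of blood cells, stood at 0.150 FPKM in positive and 6.26 FPKM in negative cells, and *Ptprj*, a receptor-type phosphatase gene that also acts in blood and vessel cells, at 1.20 and 6.38 FPKM. The median of these 9 was −0.61. All 3 medians lie within 0.35 of that of all measured genes, −0.27.

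**Figure D4:**
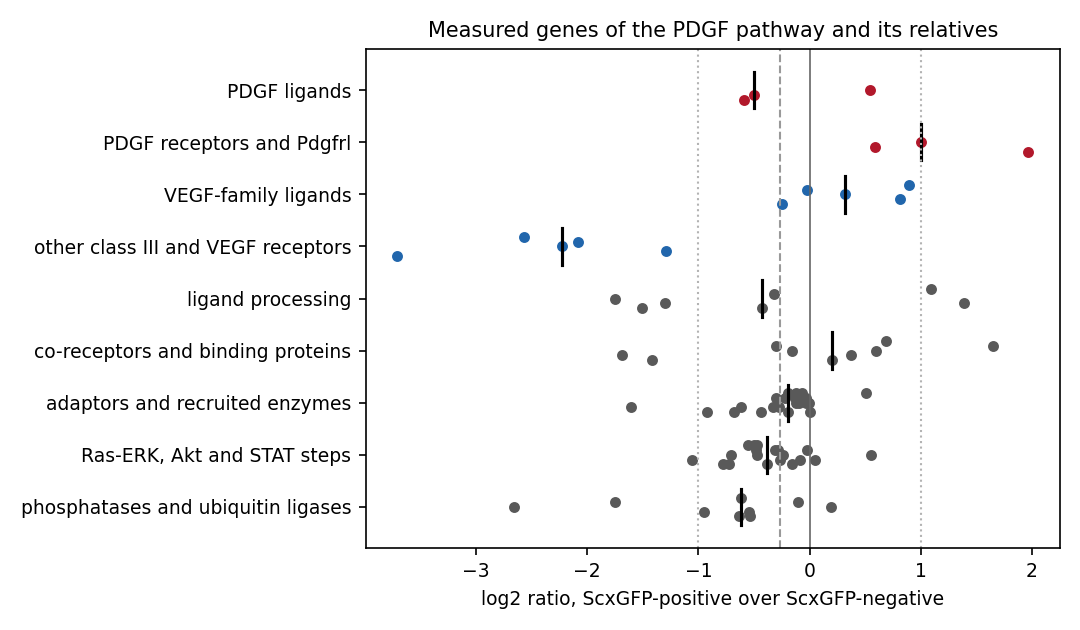
The log2 ratio of ScxGFP-positive over ScxGFP-negative for every measured gene of the PDGF genes (red), their relatives (blue) and the pathway lists (grey); black bars are list medians, dotted lines mark 2-fold and the dashed line is the median of measured genes. The receptor genes *Pdgfra*, *Pdgfrb* and *Pdgfrl* lie right of 0, and the 5 other measured receptors of class III and VEGF type lie left of −1.

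Many markers of mesenchymal cell types that carry PDGF receptors were higher in ScxGFP-positive cells, as *Pdgfra* was. Of 6 fibroblast and muscle connective tissue markers, 5 were at least 2-fold higher, with *Osr1* at 24.1 and 8.13 FPKM in positive and negative cells, *Osr2* at 8.56 and 0.570 FPKM and *Tcf7l2* at 14.8 and 12.7 FPKM. Their summed level was 154 FPKM in positive and 30.2 FPKM in negative cells. Of 9 pericyte and smooth muscle markers, 6 were measured and 3 of those were higher, *Acta2*, *Des* and *Abcc9*, with a summed level of 39.3 FPKM in positive and 13.7 FPKM in negative cells. Much of that sum was *Acta2*, the smooth muscle actin gene, at 19.9 and 2.54 FPKM; without it the sums were 19.4 and 11.1 FPKM. *Cspg4*, the NG2 proteoglycan gene, stood at 3.76 and 1.93 FPKM in positive and negative cells, *Abcc9* at 1.81 and 0.381 FPKM and *Kcnj8* at 2.62 and 1.37 FPKM, both potassium channel subunit genes. *Notch3*, a pericyte receptor gene, was level, at 5.69 and 5.62 FPKM; *Acta2*, *Des* and *Notch3* were named after their values were seen. *Rgs5*, *Myh11* and *Tagln* lay under 1 FPKM in both libraries, and no marker of either list was at 0. *Pdgfrb* was within 2-fold and *Rgs5*, a defining pericyte marker, stood at 0.578 FPKM in positive and 0.138 FPKM in negative cells. The part of these cell types in the receptor differences was not tested.

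Other lists give the span in which the members lie. Of the 4 measured cartilage markers none passed 2-fold. All 5 erythroid markers were lower, and the Schwann cell and melanoblast markers were lower in 4 of 6. Of the 5 tendon progenitor markers 4 were at least 2-fold higher, and the median positive value was 11129% of the negative value. Those percentages were 418% for *Pdgfra*, 288% for *Pdgfrl*, 158% for *Pdgfd*, 157% for *Pdgfrb*, 152% for *Pdgfc*, 65.5% for *Pdgfa* and 42.7% for *Pdgfb*. All 7 members thus lay below the tendon median and above the medians of the blood, skin and vessel lists, which were 6.43% or less, while single genes of those lists overlapped with them.

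**Figure D5:**
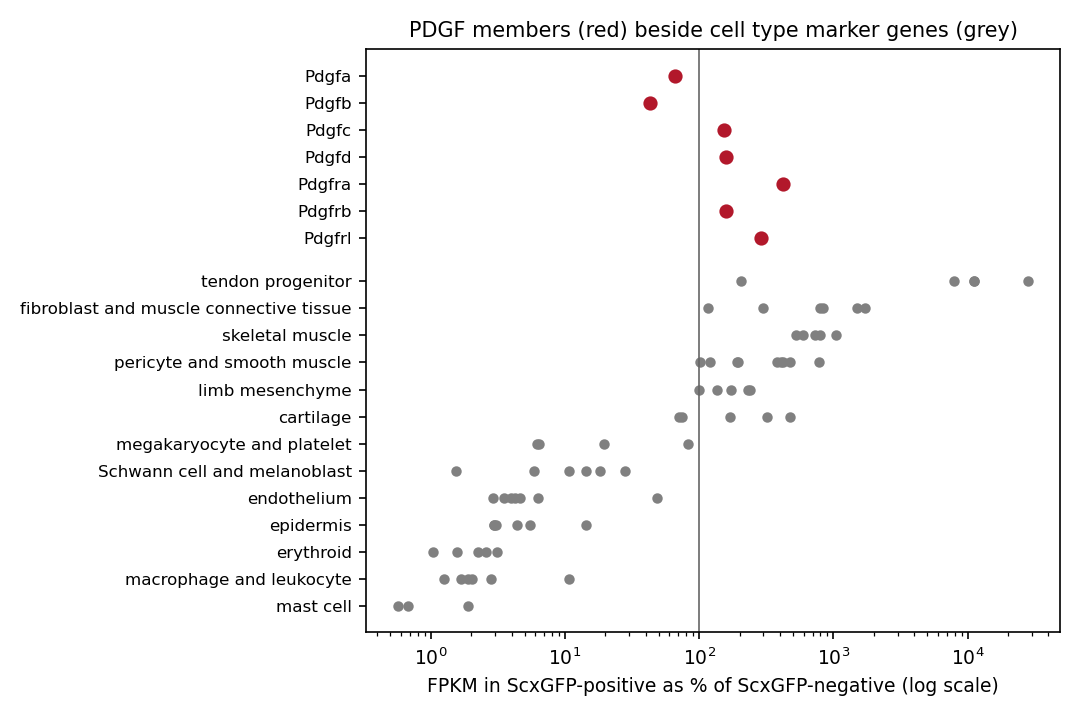
FPKM in the ScxGFP-positive library as a percentage of that in the ScxGFP-negative library, on a log axis, for the 7 PDGF genes (red) and for single marker genes of each cell type (grey; genes at 0 in a library are left out). The PDGF genes span 42.7% to 418%, between the medians of the tendon list and of the blood, skin and vessel lists; single markers overlap with them, the tendon gene *Mkx* at 206% and the vessel gene *Tek* at 48.4%.

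Genes most like each member in level in both libraries were found by the distance between pairs of log2(FPKM + 1) values among 11279 genes. Over only 2 libraries this likeness is loose, and several genes usually lie as close. The nearest to *Pdgfra* were *Islr*, an immunoglobulin-like and leucine-rich repeat protein gene, at 48.9 and 9.07 FPKM in positive and negative cells, and the collagen gene *Col5a1*, at 38.6 and 12.3 FPKM. They lay at distances of 0.25 and 0.28, and 0 genes lay within 0.1 of *Pdgfra*. The gene nearest to *Pdgfc* was *Pdgfrb*, at a distance of 0.038, and *Bex1* was nearest to *Pdgfrb*, at 0.015, and second to *Pdgfc*, at 0.043; 9 genes lay within 0.1 of each of them. *Pdgfa* was nearest to the helicase gene *Dhx15* and the DNA methyltransferase gene *Dnmt1*, *Pdgfrl* to the calcium channel subunit gene *Cacna2d1* and the zinc finger gene *Tshz3*, and *Pdgfb* to *Naip2* and *Nfkbie*.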

How the data were processed

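Sorted cells from pooled E13.5 mouse forelimbs gave 1 RNA library per group, amplified with a NuGEN Ovation kit, per the labels' protocols; that chemistry marks no strand. Bowtie 0.12.7 and TopHat 1.4.1 with build mm9 are named in the submitters' processing notes, and the sources used here do not name a version of the abundance program. Per the file headers, the authors deposited for each RefSeq transcript an FPKM, a coverage signal, a length and a status. Neither file gives counts, and aligned sequence was taken as coverage times length. Starts were moved to count from 1.

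Rows sharing a symbol were added up. The 6 symbols with a failed row were missing; all 9 rows of the PDGF genes had status OK. The difference is the log2 ratio with a pseudocount of 1, among genes that reached an FPKM of 1 in one library or both, and at least 2-fold was the size rule. The calculation was checked on simulated data. No test could be run with 1 library per group. Alternatives were pseudocounts of 0.1 and 5, no minimum or a minimum FPKM of 5, 5 scalings and the highest row of a gene. Levels are compared between genes only in FPKM, which is per length.

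Members and lists were chosen with earlier results of these data known. Named genes are all members, up to 4 of each pathway or family list past 2-fold by size, the first 3 measured and those under 1 FPKM in both libraries of a marker list that bears on a member (not all are printed), *Scx*, and the 2 nearest genes in level. Python 3.11.15, pandas 2.3.3 and numpy 2.4.6 were used.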

Additional observations from a re-analysis of the deposited data

How the results depend on the processing

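The log2 ratio of each of the 7 PDGF genes kept its sign under all alternatives tried. *Pdgfrl* fell below 2-fold at 0.44 with a pseudocount of 5, and *Pdgfb* passed 2-fold at −1.07 with a pseudocount of 0.1. *Pdgfc* passed at 1.03 and *Pdgfrb* at 1.07 with TPM, and at 1.15 and 1.20 with TPM without transcripts under 200 bases. Members at least 2-fold higher numbered 1 with a pseudocount of 5 and 1 with a minimum FPKM of 5, which drops *Pdgfrl*, and 4 with TPM and 4 with TPM without short transcripts; 1 member was lower with a pseudocount of 0.1. Pathway and relative genes that were higher numbered 3 as reported, 5 and 1 with pseudocounts of 0.1 and 5, and 1 with a minimum of 5. They numbered 6 with the median ratio set to 1, and 8 with TPM. With TPM without haemoglobin genes they numbered 6, and with TPM without short transcripts 9. Those lower numbered 14 as reported, and 19 and 4 with pseudocounts of 0.1 and 5. They numbered 9 with a minimum of 5 and 17 with the highest row only. Over all genes, 488 were higher as reported, 712 and 222 with pseudocounts of 0.1 and 5, and 323 with a minimum of 5. Under the 3 TPM scalings 1133, 1032 and 1185 were higher. Those lower numbered 1207 as reported, 1782 and 394 with pseudocounts of 0.1 and 5, and 658 with a minimum of 5. The median ratio of all measured genes was −0.27 as reported and 0.10 with TPM. A rescaling multiplies the FPKM of all genes of a library alike and a larger pseudocount shrinks low genes, by construction. TPM values are also larger beside the pseudocount of 1, so log2 ratios did not all move alike. With TPM the ratio of *Pdgfb* went from −0.50 to −0.61, and that of *Pdgfrl* from 1.01 to 1.79. No paired analysis was possible because each group has 1 library. With no counts deposited, the counting error of *Pdgfb* and *Pdgfd*, which rest on little sequence, is unknown.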
